A study of Mus musculus with 48 samples.

Results

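The genes described here make sterols and fatty acids in the liver or control that synthesis. They are 36 genes taken by symbol from a count table of 23732 genes, and all 36 passed the filter on low counts that left 14836 genes for testing. Of them, 21 were treated as sterol genes: 6 enzymes of the mevalonate steps (Acat2, Mvk, Pmvk, Mvd, Idi1 and Fdps), 3 that make lanosterol (Fdft1, Sqle and Lss), 7 that turn lanosterol into cholesterol (Cyp51, Tm7sf2, Nsdhl, Hsd17b7, Ebp, Sc5d and Dhcr7) and 5 for control and transport (Srebf2, Scap, Insig1, Insig2 and Stard4). The other 15 were treated as lipogenic genes: 5 that supply precursors and NADPH (Acss2, Acly, Me1, Acaca and Acacb), 6 that build, lengthen and desaturate fatty acids (Fasn, Elovl5, Elovl6, Scd1, Fads1 and Fads2), Gpam, which starts glycerolipid synthesis, and 3 control genes (Srebf1, Mlxipl and Thrsp).

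Both pathways begin with acetyl-CoA and use NADPH. The transcription factor SREBP-2, the product of Srebf2, activates most sterol genes, and SREBP-1, the product of Srebf1, activates most lipogenic genes. SCAP carries both from the endoplasmic reticulum to the Golgi, where they are cut into their active forms, and the INSIG proteins hold SCAP back when sterols are plentiful. Insulin and feeding raise lipogenic genes through SREBP-1c, LXR and ChREBP (the product of Mlxipl). In the liver of mice, which feed mainly at night, both pathways are known for daily rhythms, and REV-ERB repressors, which the clock factor BMAL1 activates, are known to act on them.

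The study asked how loss of BMAL1 in adult mice changes liver transcripts over the day. KO mice were male C57BL/6 mice with floxed Bmal1 alleles and a universal Cre recombinase (EsrCre) that tamoxifen switches on; WT mice, the name the labels give the controls, were littermates with the same floxed alleles and no Cre. All mice were 4 to 6 months old, both genotypes took 5 mg of tamoxifen daily for 5 days, and after 7 more days they spent 36 h in constant darkness before they were killed in darkness at 4 h intervals. There were 4 mice per genotype at each of 6 times, which makes 24 KO and 24 WT livers. Times are zeitgeber hours (ZT) as in the sample labels, although no light was present, so that ZT0 to ZT12 is subjective day and ZT12 to ZT24 subjective night. Cre went with KO in every mouse, so effects of Cre and of BMAL1 loss cannot be told apart, and since Cre was not restricted to the liver, neither can loss in the liver and loss elsewhere. Of the 48 mice, 38 shared a cage and 10 were housed singly. Cage numbers carry the letter A at ZT4 and ZT8, B at ZT12 and ZT16, and C at ZT20 and ZT0; what the letters stand for is not given. These 3 cage sets, to which singly housed mice were assigned by their time, each held both genotypes but follow the hours, so set and hour cannot be fully told apart.

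Total counts per library lay between 33562272 and 34035644. Arntl, the symbol of Bmal1 in the table, stood at 4.6 to 25.6 CPM (read counts scaled to the same total in each library) in KO livers, with a median of 16.6, against 0.979 to 47.8 CPM in WT livers, with a median of 23.8. These counts cover the whole gene and not the deleted part, so they do not by themselves check the genotype. Of 5 hepatocyte markers measured, Apoa1 was higher in KO (log2 fold change 0.33, adjusted p = 0.0194) and the other 4 were not called; the summed markers stood at 13000 to 22800 CPM in KO and 11700 to 23700 CPM in WT. Summed adipocyte markers stood at 0.29 to 2.27 CPM in KO and 0.656 to 6.23 CPM in WT, and pancreatic markers at 0 to 1.07 CPM in KO and 0 to 0.0597 CPM in WT. Single markers of endothelium (Kdr, of 6 tested), adipocytes (Cidec, of 2) and neutrophils (Camp, of 4) were lower in KO. No other marker of these types was called, and the adipocyte markers Adipoq, Plin1 and Retn were too low to be tested. None of the Kupffer cell, stellate cell, cholangiocyte, T cell, B cell or erythroid markers was called. KO mice weighed 27.9 g ± 2.52 and WT mice 30.5 g ± 2.08 (SD, n = 24 each). The part of cell make-up or weight in the results below was not tested, apart from the fit with weight as a covariate, and in bulk liver fewer cells of a type and less RNA per cell cannot be told apart.

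Promoter sequences from RefSeq were matched for 30 of the 36 genes in the table used here, as 41 windows of 300 bases, from 250 bases before to 50 after a transcript's start (build GRCm38.p6). Fads1, Fdft1, Fdps, Scd1, Sqle and Stard4 were not matched in it. The windows were searched on both strands for 3 motifs: TCACNCCAC, a form of the sterol regulatory element that SREBPs bind, CACGTG, the E-box that BMAL1 binds with its partner, and CCAAT, the box bound by NF-Y, a factor that often works beside SREBPs. The NF-Y box was in a window of 15 of the 17 sterol genes with a promoter (88.2%) and of 10 of the 13 lipogenic genes (76.9%), against 41.1% of all 27025 genes in the promoter table. The E-box was in a window of 5 sterol genes (29.4%) and 2 lipogenic genes (15.4%), against 8.09% of all genes. The sterol regulatory element as spelled was in a window of none of the sterol genes and of 1 lipogenic gene, Mlxipl (7.69%), against 1.44% of all genes. Such matches only describe the letters in these windows.

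The following 7 windows are shown because their genes carry the findings below. Insig1 and Insig2 differ in their daily profile, Lss and Mvd are sterol enzymes with a large daily range in WT, and Fasn, Thrsp and Elovl5 are lipogenic genes with different peak hours. Capitals mark matches to the 3 motifs on either strand, so that ATTGG is the NF-Y box on the other strand; the transcript's start follows base 250.
Insig1, chr5:28071162-28071461, plus strand: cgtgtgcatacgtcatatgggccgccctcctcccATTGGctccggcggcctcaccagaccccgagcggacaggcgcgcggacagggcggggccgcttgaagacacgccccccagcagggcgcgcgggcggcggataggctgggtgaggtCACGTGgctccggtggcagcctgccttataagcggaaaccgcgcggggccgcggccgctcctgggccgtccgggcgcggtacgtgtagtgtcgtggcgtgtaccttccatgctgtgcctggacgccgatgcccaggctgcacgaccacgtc
Insig2, chr1:121332540-121332839, minus strand: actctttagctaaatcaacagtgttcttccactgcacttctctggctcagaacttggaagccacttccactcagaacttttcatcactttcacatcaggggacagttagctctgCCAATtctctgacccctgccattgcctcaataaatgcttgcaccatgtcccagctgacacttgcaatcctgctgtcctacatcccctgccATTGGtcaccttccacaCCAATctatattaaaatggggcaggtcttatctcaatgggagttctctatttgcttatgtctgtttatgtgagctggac
Lss, chr10:76531355-76531654, plus strand: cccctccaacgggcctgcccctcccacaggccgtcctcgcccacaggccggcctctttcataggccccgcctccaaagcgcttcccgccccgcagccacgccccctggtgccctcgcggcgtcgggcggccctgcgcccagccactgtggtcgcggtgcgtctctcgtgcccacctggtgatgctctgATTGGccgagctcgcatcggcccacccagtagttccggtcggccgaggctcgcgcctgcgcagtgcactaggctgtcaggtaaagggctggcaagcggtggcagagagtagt
Mvd, chr8:122443373-122443672, minus strand: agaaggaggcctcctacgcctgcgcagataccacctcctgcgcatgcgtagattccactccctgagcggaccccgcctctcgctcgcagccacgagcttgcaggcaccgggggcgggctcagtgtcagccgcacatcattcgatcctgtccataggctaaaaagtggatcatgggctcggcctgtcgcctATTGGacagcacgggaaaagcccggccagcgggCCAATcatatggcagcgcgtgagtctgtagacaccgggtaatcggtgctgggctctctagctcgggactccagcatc
Fasn, chr11:120824498-120824797, minus strand: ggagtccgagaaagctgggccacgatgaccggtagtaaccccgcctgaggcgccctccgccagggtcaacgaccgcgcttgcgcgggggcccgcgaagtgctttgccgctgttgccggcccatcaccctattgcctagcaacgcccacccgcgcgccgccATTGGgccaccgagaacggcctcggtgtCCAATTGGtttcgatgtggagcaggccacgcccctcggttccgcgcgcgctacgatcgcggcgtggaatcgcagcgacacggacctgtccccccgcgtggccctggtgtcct
Thrsp, chr7:97417501-97417800, minus strand: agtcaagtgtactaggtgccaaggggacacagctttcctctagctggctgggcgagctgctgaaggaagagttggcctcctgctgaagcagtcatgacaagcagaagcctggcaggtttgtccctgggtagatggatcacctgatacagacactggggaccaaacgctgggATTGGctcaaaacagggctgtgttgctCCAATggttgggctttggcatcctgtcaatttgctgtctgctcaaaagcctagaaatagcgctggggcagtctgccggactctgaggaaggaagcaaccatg
Elovl5, chr9:77917115-77917414, plus strand: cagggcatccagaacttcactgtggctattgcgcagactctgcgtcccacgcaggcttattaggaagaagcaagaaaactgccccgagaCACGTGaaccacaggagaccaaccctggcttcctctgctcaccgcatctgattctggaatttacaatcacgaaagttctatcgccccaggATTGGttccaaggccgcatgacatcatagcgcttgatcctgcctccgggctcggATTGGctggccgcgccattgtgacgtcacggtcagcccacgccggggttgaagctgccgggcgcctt
Insig1 had an E-box and 1 NF-Y box, while the window of Insig2 shown here had 3 NF-Y boxes and no E-box, and its other 2 windows had none of the motifs. Lss had 1 NF-Y box, Mvd and Thrsp 2 each, and Fasn 3, of which 2 overlap in the run CCAATTGG. Elovl5 had an E-box and 2 NF-Y boxes.

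The genes covered a wide range of levels, compared here as CPM per kilobase of exon (exon lengths from GENCODE M21, the union of a gene's exons). Scd1, the desaturase that makes oleic acid, had the highest level, 1050 in KO and 1340 in WT, followed by Thrsp, a regulator of fatty acid synthesis, with 361 in KO and 314 in WT. The lowest were Acaca, the acetyl-CoA carboxylase that commits carbon to fatty acids, with 7.43 in KO and 6.95 in WT, and its mitochondrial relative Acacb, with 8.69 in KO and 10.3 in WT. The sterol genes lay between 13.3 and 128 in KO, with a median of 40.6, and between 11.6 and 124 in WT, with a median of 37.9. The lipogenic genes had a median of 61.7 in KO and 60.9 in WT. Insig1 and Sc5d, a sterol desaturase, stood highest among the sterol genes, at 128 and 124 in KO and 124 and 120 in WT. Acat2 and Scd1 have close relatives in the table (Acat3, with a mean count of 4370 against 3370 for Acat2, and Scd2, with 741 against 198000 for Scd1), and how reads that match both were counted is not given, so the split between them is uncertain.

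In WT liver most of the genes followed the time of day. A difference among the 6 times was called (adjusted p under 0.05) for 17 of the 21 sterol and 13 of the 15 lipogenic genes, beside 47.9% of all genes tested. Leaving out WT mouse 13 of ZT8 or WT mouse 29 of ZT16 left 11 sterol genes. A 24 h wave was called for 14 sterol and 14 lipogenic genes, beside 48.1% of all genes. The mean level was highest at ZT16 for 16 of the 21 sterol genes and lowest at ZT8 for 15 of them. Among the lipogenic genes the highest mean fell at ZT16 in 6, at ZT20 in 5, at ZT12 in 3 and at ZT0 in 1, and the lowest at ZT8 in 8. The share of all genes with their highest or lowest mean at these times is not given here. These WT counts were not repeated without WT mouse 13 of ZT8 or WT mouse 29 of ZT16, so their dependence on single mice is not known.

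The span over the day in WT was largest in Thrsp among the 36 genes, whose highest group mean was 8.49 times its lowest, 1530 CPM at ZT12 against 180 CPM at ZT0. Mvd, which decarboxylates mevalonate diphosphate, followed among group means with 4.91-fold, then Fasn, the fatty acid synthase, with 4.45-fold, Acacb with 4.21-fold and Insig2 with 4-fold. In KO the same ratio was 1.83 for Thrsp, 2.04 for Mvd, 1.73 for Fasn, 1.44 for Acacb and 1.97 for Insig2. Over the lists the median ratio was 1.54 in KO and 1.96 in WT for sterol genes, and 1.34 in KO and 2.24 in WT for lipogenic genes. These ratios are of means of 4 mice, and the highest of 6 noisy means exceeds the lowest also where nothing changes.

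**Figure D1:**
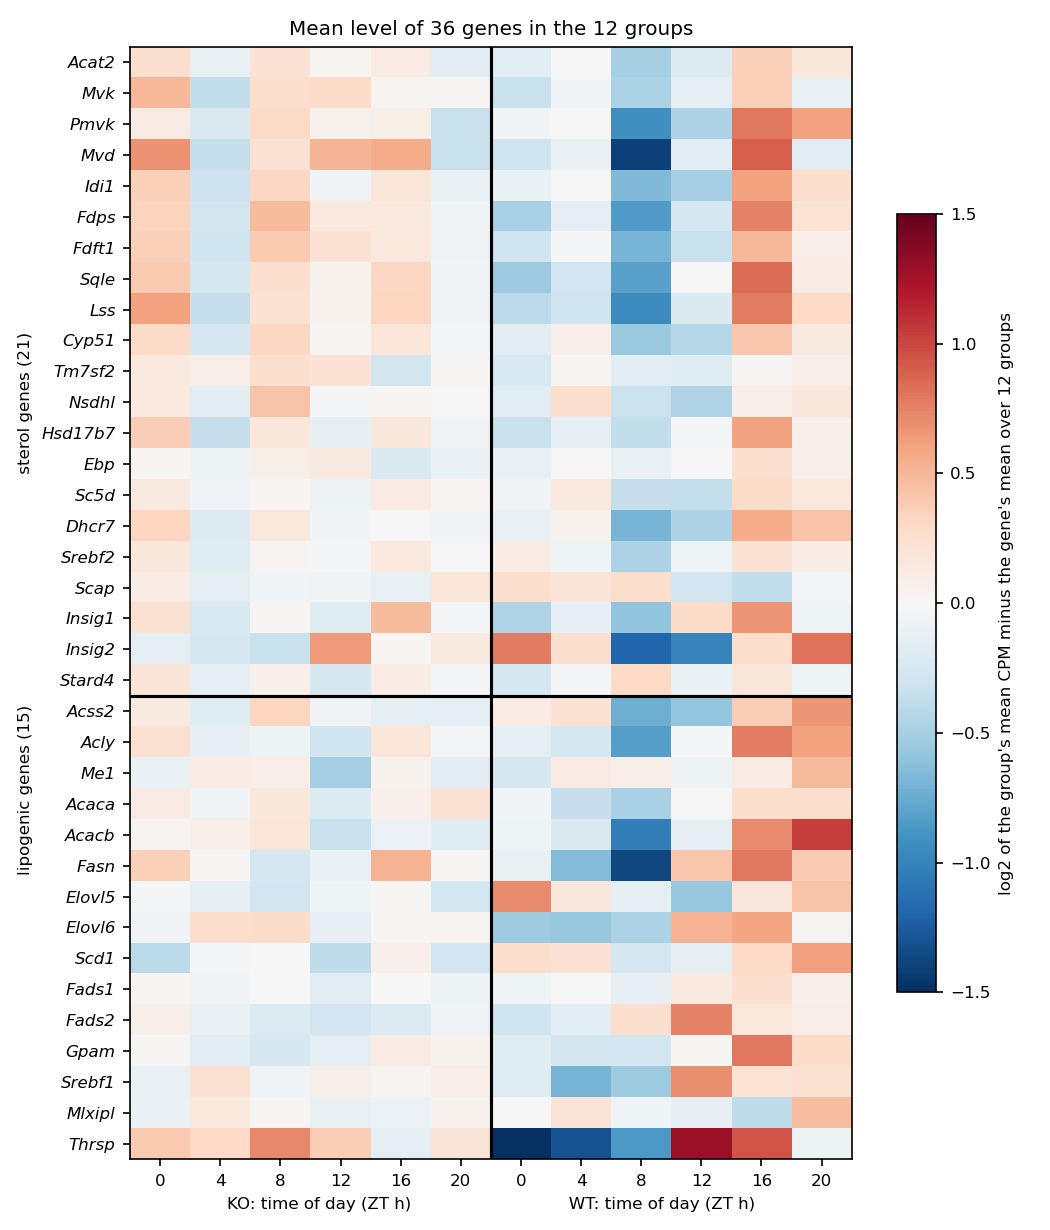
Heat map of group means: rows are the 36 genes in order of their role, columns the 6 times in KO (left) and WT (right), and colour is the log2 of the group's mean CPM (4 mice) minus the gene's mean over the 12 groups. In WT, 15 of 21 sterol genes are lowest at ZT8 and 16 highest at ZT16, while in KO 14 are lowest at ZT4 and 11 highest at ZT0, of which 0 without KO mouse 44 of ZT0. The WT counts were not repeated with a mouse left out.

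The fitted waves in WT differed in hour within each list. Among the 14 rhythmic sterol genes the median peak was ZT 19.1, and 13 of them peaked between ZT14 and ZT22. Among the 14 rhythmic lipogenic genes it was ZT 17.7, and 11 peaked in that window, beside 35.1% of all rhythmic genes; the window was chosen after the peaks were seen. The exception among sterol genes was Scap, with a peak at ZT 3.2 ± 0.6 h (SE). Insig1 peaked at ZT 15.5 ± 0.9 h, Srebf2 at ZT 19.6 ± 1 h and Insig2 at ZT 21.9 ± 0.5 h. The lipogenic genes outside the window were Fads2, with a peak at ZT 12.5 ± 0.6 h, Elovl5, at ZT 22.8 ± 0.5 h, and Mlxipl, at ZT 23.9 ± 1.2 h. Thrsp at ZT 14.2 and Srebf1 at ZT 15.7 had earlier fitted peaks than Fasn at ZT 17.4, Acly at ZT 18.2 and Acacb at ZT 19, each with an SE of 0.4 to 0.8 h, so that neighbours in this order often lie within their errors.

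Cage set changed with time, so the steps between the 2 times of 1 set were also compared within WT; these comparisons were added after the data were seen. Between ZT12 and ZT16, 7 sterol genes were higher at ZT16 and none lower, beside 6.81% and 5.72% of all genes: Pmvk, Idi1, Fdps, Cyp51, Sc5d, Dhcr7 and Insig2, by 0.63 to 1.26 on the log2 scale. In the same step Acss2, Acly, Elovl5 and Gpam rose by 0.74 to 0.95 and Fads2 fell by 0.59. Between ZT4 and ZT8, Insig2 was lower at ZT8 by 1.42 ± 0.28 (SE, adjusted p = 0.00167), and no other member was called, beside 1.5% of all genes lower and as many higher; the median step was -0.53 for sterol genes. Between ZT20 and ZT0, Thrsp was lower at ZT0 (-1.73 ± 0.44 (SE), adjusted p = 0.0479), beside 0.472% of all genes. With cage set as a term in the wave fit, 5 sterol genes kept a called wave in WT: Pmvk, Sc5d, Dhcr7, Scap and Insig2. The set terms can take up the part of a wave that lies between sets. The share of all genes that kept a wave in this fit is not given here. The count thus cannot be read as particular to sterol genes. In KO no member was called in any of these 3 steps, by edgeR's test, where 0.896% of all genes were higher and 2.11% lower at ZT16 and none in the other 2 steps.

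In KO liver no member had a called wave or a called difference among times. By edgeR, 0 of 21 sterol and 0 of 15 lipogenic genes had a 24 h wave, beside 0.984% of all genes; 1 of each list had an unadjusted p under 0.05, and DESeq2 and limma-voom also called 0. For any difference among times edgeR called 0, beside 0.91% of all genes, with 4 sterol and 0 lipogenic genes at an unadjusted p under 0.05; DESeq2 called 1 sterol gene and limma-voom 0, and edgeR called 1 without KO mouse 43 of ZT0. The smallest adjusted p for a KO wave among sterol genes was that of Insig2 (0.195), followed by Tm7sf2 (0.268), Scap (0.27), Ebp (0.381) and Insig1 (0.483). Among lipogenic genes it was that of Fads2 (0.226), followed by Gpam (0.321), Fasn (0.49), Acly (0.505) and Thrsp (0.515). A p above the threshold does not show that these genes were constant in KO.

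The fitted amplitude, the distance from the mean to the peak of the wave on the log2 scale, had a median of 0.09 in KO and 0.37 in WT for sterol genes. For lipogenic genes the medians were 0.14 in KO and 0.54 in WT, and over all genes tested 0.11 in KO and 0.18 in WT. The sterol KO median was 0.24 without the 4 KO mice named below and 0.16 with cage set as a term, and the lipogenic KO median 0.23 with cage set. Without those 4, KO keeps only mice 41 and 46 at ZT0 and mice 18 and 24 at ZT12. The KO amplitude was the smaller in 20 of 21 sterol and 15 of 15 lipogenic genes, beside 71.9% of all genes; Tm7sf2, which reduces a sterol double bond, had 0.17 ± 0.07 in KO and 0.07 ± 0.07 in WT. The difference between the waves themselves was called for 3 sterol genes, Pmvk, Scap and Insig2, and for 10 lipogenic genes, beside 22.8% of all genes. The sterol count was 8 without WT mouse 2 of ZT4, 5 without KO mouse 44 of ZT0 and 9 without the 4 KO mice that earlier results of these data put farthest from their groups (mice 20 and 21 of ZT12, 43 and 44 of ZT0); body weight as a covariate gave 7 and limma-voom with cage as a random block 6. The wider test of a genotype by time interaction called 7 sterol genes (Pmvk, Fdps, Lss, Ebp, Dhcr7, Scap and Insig2) and 8 lipogenic genes, beside 20.7% of all genes. That sterol count was 13 without KO mouse 43 of ZT0, 12 without KO mouse 18 of ZT12, 14 without the 4 farthest KO mice and 12 with DESeq2. For these alternative fits, and those of the wave difference above, the share of all genes called is not given here. The changes in count thus cannot be read as particular to sterol genes. An edgeR fit paired by cage, on 22 mice with 5 residual degrees of freedom, called 0 sterol and 0 lipogenic genes (13 and 11 at an unadjusted p under 0.05), beside 0.263% of all genes.

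**Figure D2:**
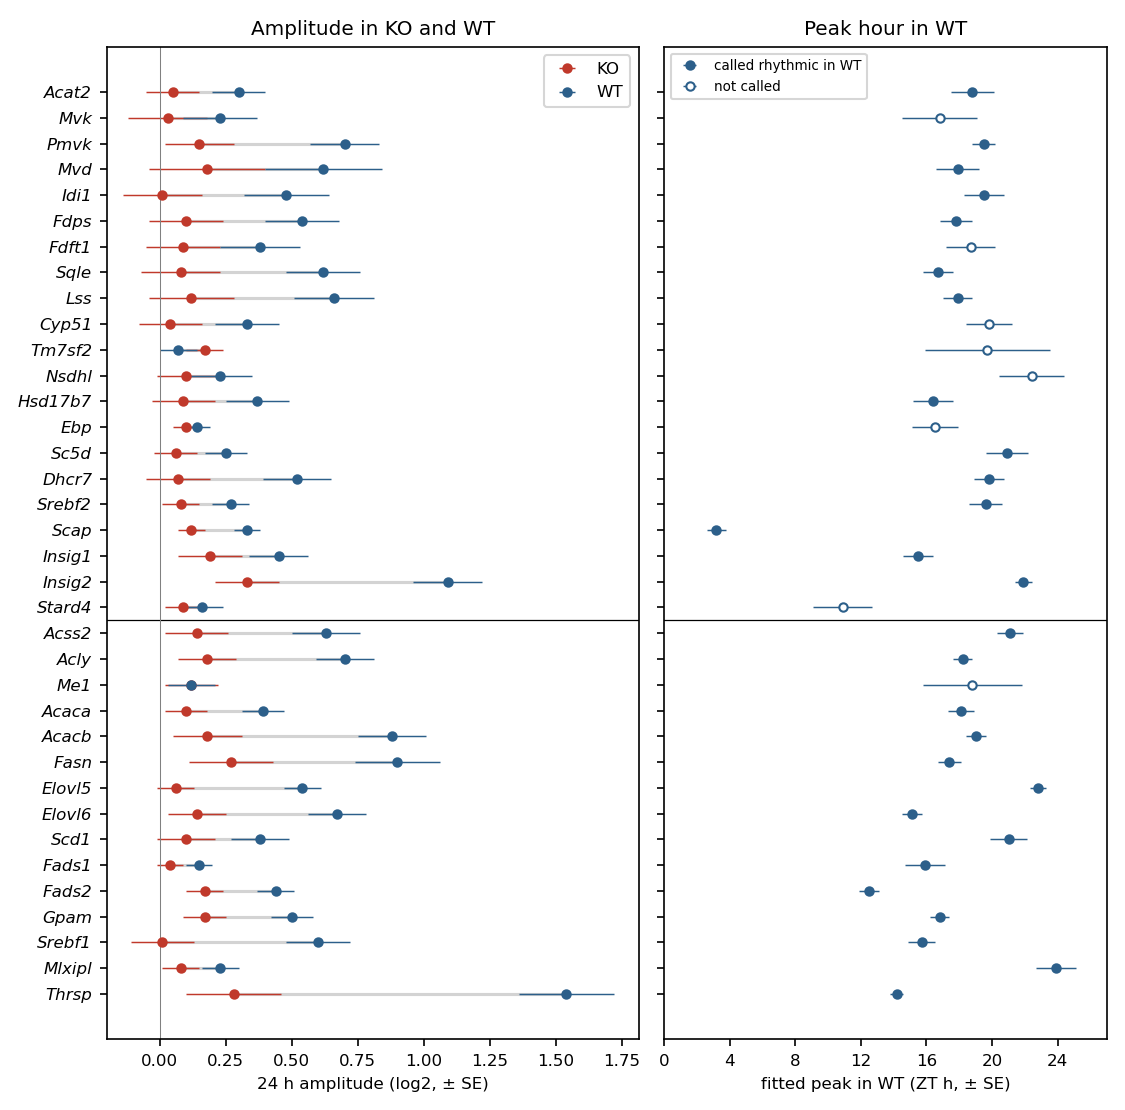
Left, the fitted 24 h amplitude (log2, ± approximate SE) of each gene in KO and WT; right, the fitted peak hour in WT (ZT h, ± SE), filled where a wave was called. KO amplitudes have a median of 0.09 for sterol and 0.14 for lipogenic genes, against 0.37 and 0.54 in WT (KO medians of up to 0.24 and 0.23 under the alternatives in the text), and most WT peaks lie between ZT14 and ZT22.

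KO was then set against WT at each time. At ZT0 edgeR called 0 sterol genes (10 at an unadjusted p under 0.05) and 2 lipogenic genes, 1 higher and 1 lower, beside 1.68% of all genes. At ZT4 it called 0 sterol genes (1 at an unadjusted p under 0.05) and 2 lipogenic genes, both higher, beside 3.79% of all genes. At ZT8 it called 9 sterol and 4 lipogenic genes, beside 7.87%. ZT8 thus held most of the members' calls. At ZT12 it called 1 sterol gene, higher, and 2 lipogenic genes, 1 in each direction, beside 11.7% of all genes. At ZT16 it called 1 gene of each list, both lower, beside 5.37% of all genes (2.6% higher and 2.77% lower). At ZT20 it called 0 sterol genes (2 at an unadjusted p under 0.05) and 2 lipogenic genes, both lower, beside 1.05% of all genes (0.647% higher and 0.404% lower). Where edgeR called no sterol gene, DESeq2 called 1 lower at ZT0, 0 at ZT4 and 1 lower at ZT20, and limma-voom called 0 at all 3 times.

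At ZT8 the calls lay in 1 direction. At this time 9 sterol and 4 lipogenic genes were higher in KO, beside 3.78% of all genes, and none lower, beside 4.08%. The median log2 fold change was 0.75 for sterol and 0.48 for lipogenic genes, against 0.01 for all genes. All 4 KO mice lay above all 4 WT mice for 17 of 21 sterol and 6 of 15 lipogenic genes, beside 7.35% of all genes, and below them for Scap, Stard4 and Fads2, beside 8.07%. ZT8 was also the time of the lowest WT mean for 15 of the 21 sterol genes. The count of sterol genes called depends on single mice: without KO mouse 9, 14 or 15 of ZT8, or WT mouse 11, 12, 13 or 16 of ZT8, it was 2 to 4, in a fit with 3 mice in that group. Most of the 9 sterol calls, given by gene below, were thus lost in each of these fits. The count was 3 with body weight as a covariate and 4 with no filter on low counts. The lipogenic count was 2 without KO mouse 14 and 1 without WT mouse 13 or 16 of ZT8. In an edgeR fit paired by cage, over the 11 cages that held 1 mouse of each genotype, of which 2 at ZT8, Mvd and Fdps were called higher at ZT8 and no lipogenic gene was (15 and 9 genes at an unadjusted p under 0.05), beside 0.634% of all genes called; the median log2 fold change was 1.18 for sterol and 0.64 for lipogenic genes.

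Among the mevalonate enzymes, Pmvk, the phosphomevalonate kinase (chr3:89263040-89272935; gene coordinates are those of mm9), had at ZT8 96.9, 89.1, 119 and 93.9 CPM in the KO mice, against 47.5, 45.9, 30.8 and 49.2 CPM in the WT mice. No KO value overlapped the WT values, and the log2 fold change was 1.2 ± 0.28 (SE), adjusted p = 0.00465. Fdps, which makes farnesyl diphosphate (chr3:88897514-88905881), had 424, 355, 659 and 508 CPM in the KO mice, against 205, 264, 102 and 205 CPM in the WT mice, with WT mouse 13 the lowest, and differed by 1.33 ± 0.33 (SE), adjusted p = 0.00872. Mvd (chr8:124957496-124967322) had 45.9, 30.6, 57.9 and 37.9 CPM in the KO mice, against 18.7, 12.5, 11.7 and 13.4 CPM in the WT mice. Again the genotypes did not overlap, and Mvd differed by 1.61 ± 0.49 (SE), adjusted p = 0.0328. Acat2, the cytosolic thiolase of the first step, rose by 0.72 ± 0.23 (SE, adjusted p = 0.0496), a call that 36 of 48 fits with 1 mouse left out did not make. Mvk and Idi1 had log2 differences of 0.74 and 0.98 that were not called. Later in the day Pmvk changed side: at ZT20 it had 59, 66.8, 53.5 and 80.3 CPM in the KO mice, against 110, 150, 119 and 116 CPM in the WT mice, all KO values below all WT values, though the difference was not called (-0.93 ± 0.28 (SE), adjusted p = 0.0859).

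Of the 3 enzymes that make lanosterol, Lss, the lanosterol synthase (chr10:75994333-76019883), had 131, 114, 203 and 146 CPM in the KO mice, against 69.4, 75.2, 45.4 and 73.2 CPM in the WT mice at ZT8. KO lay above WT throughout, with a log2 fold change of 1.18 ± 0.35 (SE), adjusted p = 0.0324. Fdft1, the squalene synthase, rose by 1.10 ± 0.34 (SE, adjusted p = 0.0391); in the table its coordinates overlap those of Ctsb by 769 bases, and without strand their reads cannot be told apart there. Sqle, the squalene epoxidase, had 213, 165, 293 and 233 CPM in the KO mice, against 140, 123, 51.6 and 119 CPM in the WT mice, which did not overlap but was not called (1.06 ± 0.35 (SE), adjusted p = 0.0524). Of the 7 enzymes from lanosterol to cholesterol, Cyp51, the lanosterol demethylase, rose at ZT8 by 0.87 ± 0.27 (SE, adjusted p = 0.0409), and the other 6 had log2 differences between 0.20 and 0.85 that were not called. Ebp, a sterol isomerase (chrX:7762455-7770638), fell at ZT16: it had 191, 238, 224 and 232 CPM in the KO mice, against 334, 291, 323 and 275 CPM in the WT mice, without overlap (-0.47 ± 0.12 (SE), adjusted p = 0.0136). It was the only sterol gene called lower in KO at a single time by edgeR with all mice, beside 2.77% of all genes at ZT16; without KO mouse 25 of ZT16 it was not called. Dhcr7, which makes cholesterol in the last step, was not called at any one time but had a called interaction (adjusted p = 0.0336).

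The control genes of the sterol pathway did not move as a group. Insig2 (chr1:123200930-123229166) had the largest fold change of the sterol genes at a single time. At ZT12 it had 417, 599, 285 and 442 CPM in the KO mice, against 73.2, 133, 186 and 169 CPM in the WT mice, so that the lowest KO mouse stood above the highest WT mouse. The log2 fold change was 1.63 ± 0.28 (SE), adjusted p = 0.000114, and it stayed called in all 48 fits that left out a mouse. It was the only sterol gene called at ZT12, beside 6.59% of all genes higher and 5.12% lower. At ZT8 it also rose, with 289, 297, 95.6 and 204 CPM in the KO mice, against 112, 122, 125 and 133 CPM in the WT mice and 1 KO mouse below WT (0.85 ± 0.28 (SE), adjusted p = 0.0486), a call that 37 of 48 fits with 1 mouse left out did not make. At ZT0 Insig2 had 242, 442, 202 and 135 CPM in the KO mice, against 437, 498, 513 and 464 CPM in the WT mice, with 3 KO mice well below WT and 1 (mouse 43) level with it; this difference was not called (-0.9 ± 0.28 (SE), adjusted p = 0.0788). At ZT20 all KO values lay below all WT values, with 286, 345, 256 and 344 CPM in the KO mice, against 526, 481, 400 and 555 CPM in the WT mice (-0.67 ± 0.28 (SE), adjusted p = 0.259). Its wave had an amplitude of 0.33 ± 0.12 in KO and 1.09 ± 0.13 in WT, and the waves differed (adjusted p = 5.55e-06).

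Insig1 (chr5:28397952-28405201), whose transcript is itself an SREBP target, had 361, 378, 469 and 334 CPM in the KO mice, against 278, 225, 200 and 299 CPM in the WT mice at ZT8. These did not overlap, but the difference was not called (0.62 ± 0.25 (SE), adjusted p = 0.119), and its waves, with amplitudes of 0.19 ± 0.12 in KO and 0.45 ± 0.11 in WT, were not called different (adjusted p = 0.275). Scap (chr9:110235792-110287450) ran the other way. At ZT8 it had 105, 114, 107 and 108 CPM in the KO mice, against 129, 143, 134 and 132 CPM in the WT mice, all KO values below WT, and at ZT16 114, 97.3, 107 and 99.1 CPM in the KO mice, against 90.5, 82.6, 83.3 and 91.7 CPM in the WT mice, all above. Neither difference was called (-0.31 ± 0.11 (SE), adjusted p = 0.0872 at ZT8 and 0.26 ± 0.11 (SE), adjusted p = 0.185 at ZT16), whereas the waves did differ (adjusted p = 0.00152), with amplitudes of 0.12 ± 0.05 in KO and 0.33 ± 0.05 in WT. Srebf2 (chr15:81977696-82035806) rose at ZT8, with 95, 93.9, 109 and 89.5 CPM in the KO mice, against 68.7, 73.8, 62 and 68.2 CPM in the WT mice and a log2 fold change of 0.51 ± 0.16 (SE), adjusted p = 0.0453. Stard4, a carrier of cholesterol between membranes, was not called at any time.

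**Figure D3:**
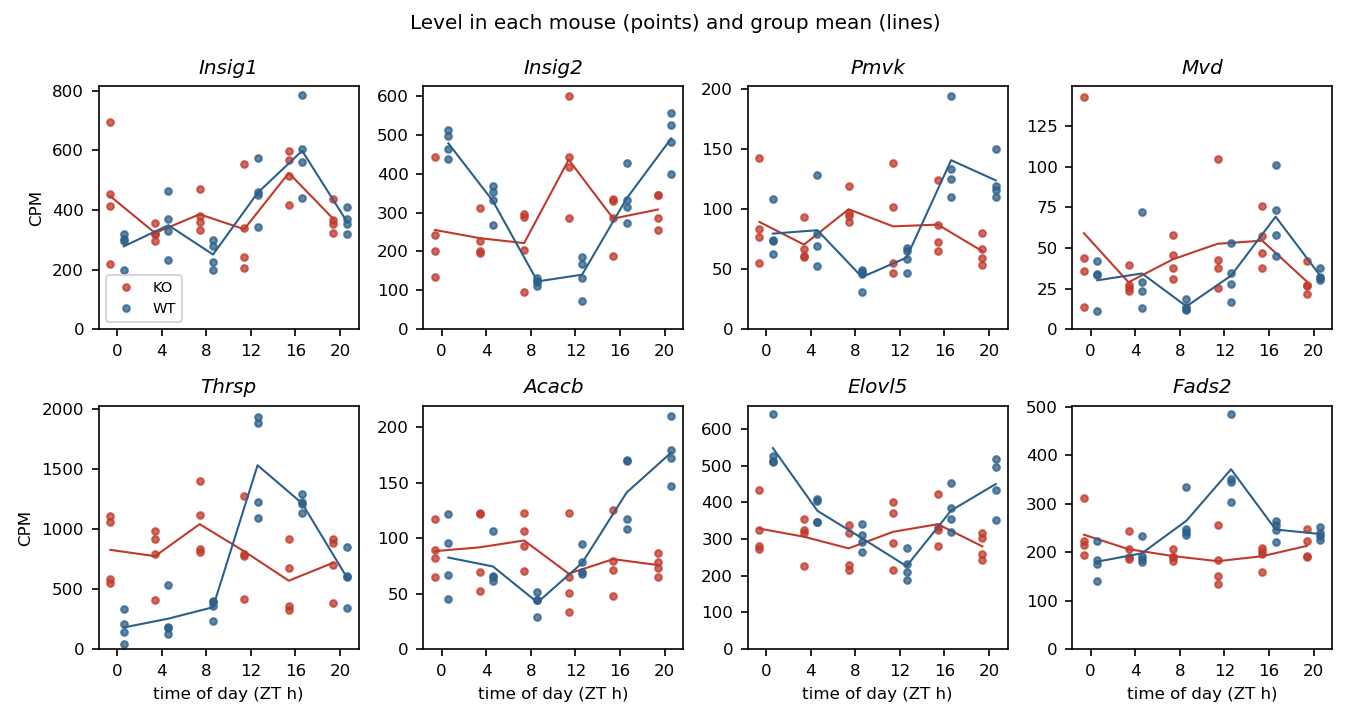
CPM of 4 sterol genes (top) and 4 lipogenic genes (bottom) against time of day, with a point for each mouse and lines through the means of 4 mice, KO left of WT at each time. At ZT12 the KO mice have 285 to 599 CPM of Insig2 and the WT mice 73.2 to 186 CPM, and at ZT8 Pmvk and Mvd in KO do not overlap WT.

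Among the lipogenic genes that supply precursors, 3 of 5 were called higher at ZT8, beside 3.78% of all genes. As counted above, most of the lipogenic calls at ZT8 were lost without WT mouse 13 or 16 of that time. Acss2, which makes acetyl-CoA from acetate (chr2:155343684-155411460), had 330, 323, 386 and 324 CPM in the KO mice, against 164, 167, 139 and 185 CPM in the WT mice and a log2 fold change of 1.06 ± 0.28 (SE), adjusted p = 0.0146; its coordinates overlap those of Gss, with a mean count of 3500 for Gss against 9520 for Acss2, and strand was not recorded. Acacb (chr5:114596544-114700770), whose product makes the malonyl-CoA that restrains fatty acid oxidation, had 92.4, 123, 106 and 69.9 CPM in the KO mice, against 44, 51.4, 44.2 and 28.5 CPM in the WT mice (1.22 ± 0.31 (SE), adjusted p = 0.00985). The genotypes did not overlap in either gene. At ZT20 Acacb stood the other way, with 73.2, 78.3, 64.7 and 86.5 CPM in the KO mice, against 172, 179, 210 and 147 CPM in the WT mice, and fell in KO by 1.22 (SE 0.31, adjusted p = 0.0339), beside 0.404% of all genes lower at that time; without any 1 of 7 of the 8 mice of ZT20 (all but WT mouse 40) it was -1.13 to -1.29 and not called. Acaca rose at ZT8 by 0.66 ± 0.19 (SE, adjusted p = 0.0257). In the fit paired by cage, Acss2, Acacb and Acaca stood at 1.14 ± 0.32, 1.27 ± 0.28 and 0.86 ± 0.22 (SE) at ZT8 and were not called. Acly, which splits citrate into acetyl-CoA, had log2 differences of 0.75 at ZT8 and -0.62 at ZT20 that were not called, and a called difference in waves (adjusted p = 0.00811; amplitudes of 0.18 ± 0.11 in KO and 0.7 ± 0.11 in WT). Me1, the malic enzyme that yields NADPH, was not called in any comparison of KO with WT.

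The synthase, elongases and desaturases split by gene. Fasn had 437, 537, 656 and 601 CPM in the KO mice, against 279, 295, 230 and 237 CPM in the WT mice at ZT8, without overlap, and was not called (1.1 ± 0.37 (SE), adjusted p = 0.0546). Elovl5, which lengthens polyunsaturated fatty acids (chr9:77765171-77832326), had 435, 282, 324 and 274 CPM in the KO mice, against 641, 528, 511 and 514 CPM in the WT mice at ZT0. All KO mice lay below all WT mice (-0.74 ± 0.17 (SE), adjusted p = 0.0191), beside 0.613% of all genes lower at ZT0; without the 4 farthest KO mice, 2 of them of ZT0, the value was -0.63 and was not called (adjusted p = 0.16). At ZT20 it had 259, 303, 316 and 243 CPM in the KO mice, against 497, 352, 434 and 518 CPM in the WT mice (-0.69 ± 0.17 (SE), adjusted p = 0.0339), a call lost without any 1 of KO mice 34, 38 and 39 or WT mice 33, 36 and 40 (-0.61 to -0.75). At ZT12, with 401, 372, 217 and 290 CPM in KO against 188, 211, 231 and 275 CPM in WT, it was higher in KO with overlap (0.5 ± 0.17 (SE), adjusted p = 0.049), a call that 41 of 48 fits with 1 mouse left out did not make. Fads2, a desaturase of the polyunsaturated path (chr19:10138654-10175993), had 256, 151, 134 and 184 CPM in the KO mice, against 344, 304, 351 and 484 CPM in the WT mice at ZT12. It did not overlap and fell in KO by 1.03 (SE 0.16, adjusted p = 2.4e-05). Elovl6, which lengthens palmitate, was not called at any one time, but its waves differed (adjusted p = 0.00103; amplitudes of 0.14 ± 0.11 in KO and 0.67 ± 0.11 in WT).

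Gpam, which adds the first acyl chain to glycerol phosphate (chr19:55142142-55201824), had 261, 267, 358 and 244 CPM in the KO mice, against 442, 449, 480 and 436 CPM in the WT mice at ZT16. It fell in KO without overlap (-0.68 ± 0.19 (SE), adjusted p = 0.0286) and was the only lipogenic gene called at ZT16. Over the lipogenic genes, all 4 KO mice lay below all 4 WT mice for 5 of 15 at ZT16, beside 7.49% of all genes, and for 7 of 15 at ZT20 (Acss2, Acly, Me1, Acacb, Elovl5, Scd1 and Mlxipl), beside 5.19%. For the sterol genes these counts were 2 of 21 at each time.

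The lipogenic control genes differed in how they moved. Thrsp (chr7:104561448-104566240) had the largest fold change of the 36 genes at a single time: at ZT0 it had 550, 582, 1110 and 1060 CPM in the KO mice, against 332, 139, 208 and 41.6 CPM in the WT mice. The genotypes did not overlap, and the log2 fold change was 2.2 ± 0.44 (SE), adjusted p = 0.00689, a 4.59-fold difference, beside 1.06% of all genes higher at ZT0. It also rose at ZT4 (1.61 ± 0.43 (SE), adjusted p = 0.0276), beside 1.9% of all genes. There the genotypes overlapped, with WT mouse 2 at 532 CPM above KO mouse 1 at 408 CPM. Lipogenic calls higher in KO, summed over times, were fewer without single mice of ZT4, as counted below. Whether the call of Thrsp at ZT4 was among those lost is not given here. At ZT8 Thrsp rose as well, with 808, 831, 1400 and 1120 CPM in the KO mice, against 399, 395, 237 and 362 CPM in the WT mice (1.58 ± 0.43 (SE), adjusted p = 0.0176). At ZT16, near its WT peak, it had 326, 918, 673 and 359 CPM in the KO mice, against 1210, 1220, 1130 and 1290 CPM in the WT mice, below WT in every KO mouse but not called (-1.09 ± 0.43 (SE), adjusted p = 0.129). Srebf1 (chr11:60012591-60036083), counted without separating the transcripts for its SREBP-1a and SREBP-1c forms, had 520, 395, 378 and 285 CPM in the KO mice, against 337, 184, 146 and 157 CPM in the WT mice at ZT4, with WT mouse 2 inside the KO range. It rose by 0.94 ± 0.28 (SE, adjusted p = 0.047); 19 of 48 fits with 1 mouse left out did not call it. At ZT12 its mean was lower in KO, 355 CPM against 545 CPM in WT, and not called with all mice. The fit paired by cage, with 3 pairs at ZT12, called Srebf1 lower there (-0.72 ± 0.14 (SE), adjusted p = 0.0228), beside 5.84% of all genes called. Its waves differed as well (adjusted p = 0.0223), with amplitudes of 0.01 ± 0.12 in KO and 0.6 ± 0.12 in WT. Mlxipl was not called in KO against WT at any time, and its amplitudes were 0.08 ± 0.07 in KO and 0.23 ± 0.07 in WT.

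**Figure D4:**
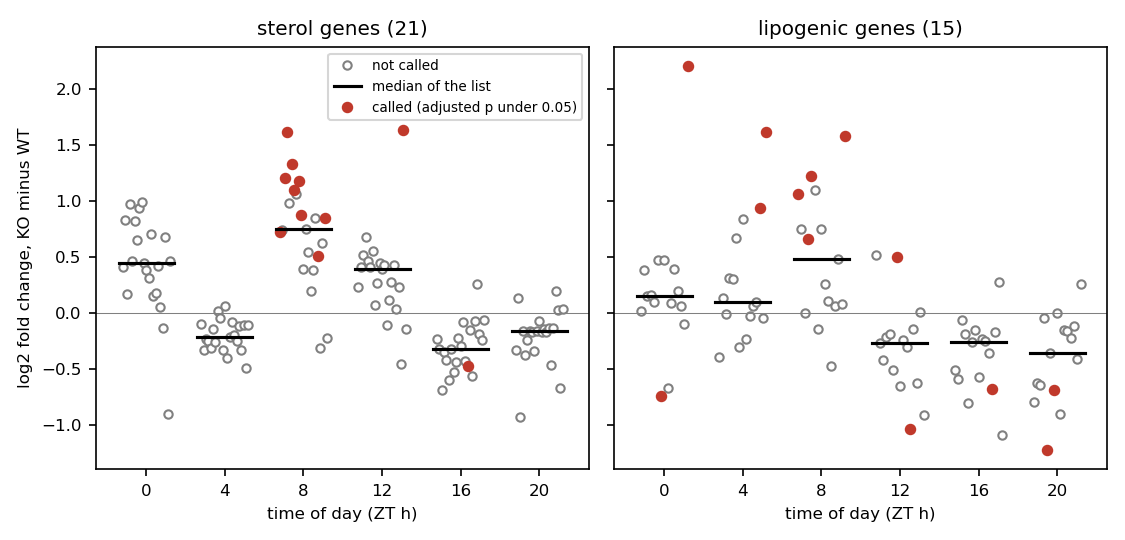
Log2 fold change of KO minus WT for each sterol gene (left) and lipogenic gene (right) at the 6 times, filled where the adjusted p was under 0.05, with bars at the median of the list. The sterol median is 0.75 at ZT8 and -0.32 at ZT16, and at ZT8 all 9 sterol and 4 lipogenic calls are above 0.

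Averaged over the 6 times, few of the genes differed. No sterol gene was called, beside 8.86% of all genes called, 4.94% of all genes higher and 3.92% lower, by edgeR; 2 had an unadjusted p under 0.05, and DESeq2 and limma-voom called 0. The median log2 fold change of the sterol genes was 0.12, with 18 of 21 above 0, against 0.00 over all genes. Mvd had the largest value among them, 0.42 ± 0.19 (SE, adjusted p = 0.182). Of the lipogenic genes 1 was higher and 3 were lower in KO, with a median of -0.04. Thrsp stood at 326 to 1400 CPM (median 799) in KO mice, against 41.6 to 1930 CPM (median 465) in WT mice, and rose by 0.61 ± 0.17 (SE), adjusted p = 0.0209; with body weight as a covariate it was 0.5 and not called (adjusted p = 0.155). Fads2 stood at 134 to 312 CPM (median 195) in KO, against 140 to 484 CPM (median 238) in WT (-0.26 ± 0.06 (SE), adjusted p = 0.00701). Elovl5 stood at 216 to 435 CPM (median 316) in KO, against 188 to 641 CPM (median 354) in WT (-0.25 ± 0.07 (SE), adjusted p = 0.0174). Scd1 stood at 2430 to 7880 CPM (median 5120) in KO, against 2630 to 10000 CPM (median 6620) in WT (-0.33 ± 0.11 (SE), adjusted p = 0.0399). The ranges overlapped in all 4. Scd1 was not called in 25 of 48 fits with 1 mouse left out, and without the 4 farthest KO mice Elovl5, Fads2 and Scd1 stood at -0.22, -0.18 and -0.22 and were not called (adjusted p = 0.0532, 0.0545 and 0.166). In a fit of 1 KO effect paired by cage over the 11 mixed cages none of the 36 genes was called (1 sterol and 3 lipogenic genes at an unadjusted p under 0.05), beside 1.32% of all genes: Thrsp stood at 0.54 ± 0.39 (SE), Elovl5 at -0.28 ± 0.16, Fads2 at -0.45 ± 0.14 and Scd1 at -0.45 ± 0.14.

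The level of each list in a mouse, the mean over its genes of log2 CPM minus the gene's mean over 48 mice, was also followed over the day. In KO the sterol level averaged between -0.19 at ZT4 and 0.20 at ZT8, and in WT between -0.53 ± 0.26 at ZT8 and 0.44 ± 0.28 at ZT16 (SD, n = 4). The lipogenic level averaged between -0.21 at ZT12 and 0.06 at ZT8 in KO, and in WT between -0.43 ± 0.07 at ZT8 and 0.43 ± 0.10 at ZT16. At ZT20 it was -0.02 ± 0.13 in KO and 0.40 ± 0.13 in WT. Mice of a group spread widely in the sterol level. In KO, mouse 44 of ZT0 stood at 0.90 (group mean 0.19) and mouse 18 of ZT12 at 0.78 (group mean 0.01). In WT, mouse 2 of ZT4 stood at 0.52 (group mean -0.03), mouse 23 of ZT12 at -0.75 (-0.26) and mouse 48 of ZT0 at -0.60 (-0.15). Mouse 13 of ZT8 stood at -0.93 (-0.53) and mouse 29 of ZT16 at 0.85 (0.44). KO mouse 44 is 1 of the 4 farthest mice named above. KO mouse 18 is not, and it stayed in the fits without those 4, beside only mouse 24 at ZT12.

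**Figure D5:**
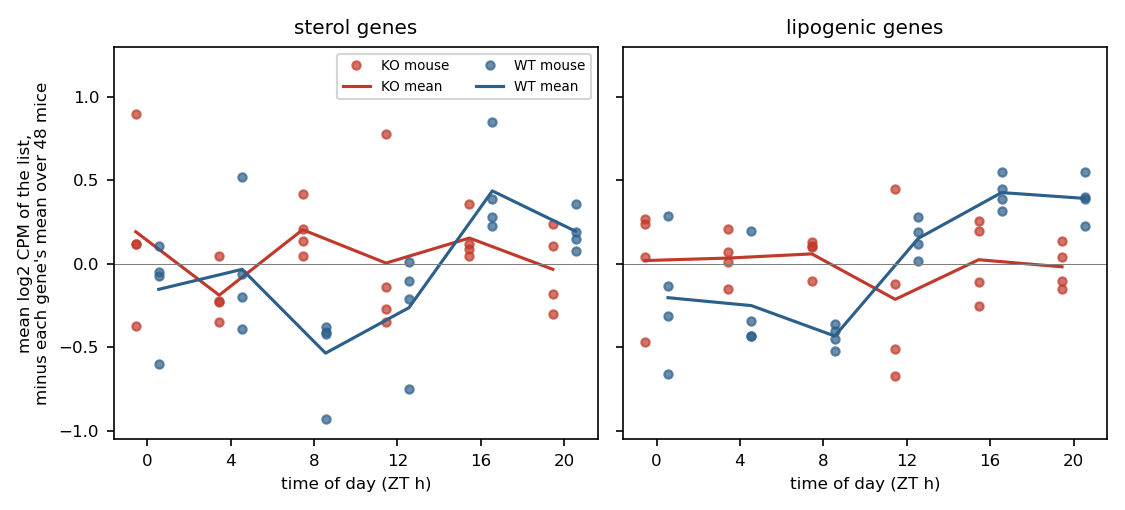
Level of the sterol list (left) and the lipogenic list (right) in each of the 48 mice (points, log2 relative to each gene's mean) by time of day, with lines through the group means, KO left of WT. WT means run from -0.53 at ZT8 to 0.44 at ZT16 for sterol genes, and KO means stay between -0.19 and 0.20.

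The levels of the sterol enzymes were also correlated from mouse to mouse within groups. The correlation across the 24 mice of a genotype, after subtracting each group's mean, had a median Pearson r of 0.83 in KO and 0.81 in WT over the 120 pairs of sterol enzymes (Spearman rho 0.74 in KO and 0.81 in WT). Over the 66 pairs of lipogenic enzymes it was 0.53 in KO and 0.40 in WT. Between sterol and lipogenic enzymes it was 0.51 in KO and 0.36 in WT, near the values within lipogenic enzymes. Over all pairs of genes tested it was 0.00 in both. Without the 2 mice per genotype farthest in the sterol enzymes' level (KO mice 18 of ZT12 and 44 of ZT0, WT mice 23 of ZT12 and 2 of ZT4) the sterol median was 0.72 in KO and 0.77 in WT, and the lipogenic median 0.41 in KO and 0.39 in WT. The median between sterol and lipogenic enzymes was then 0.33 in KO and 0.38 in WT. These values describe shared variation among genes measured in the same libraries and carry no test. Lss had the highest median r with the other sterol enzymes in KO, 0.92. Among lipogenic genes, by the lists used here, Acss2 had the highest median r with sterol enzymes, 0.83 in KO and 0.70 in WT. Next came Acly in KO, with 0.74, and Thrsp in WT, with 0.67, while the lowest in KO was Mlxipl, with -0.14. Insig2 had a median r of -0.38 in KO and -0.05 in WT with the sterol enzymes, and Scap 0.31 in KO and -0.20 in WT, unlike Srebf2, with 0.80 in both, and Insig1, with 0.77 in KO and 0.63 in WT. Scd1 had 0.33 in KO and -0.28 in WT.

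The spread within groups, pooled over the 6 times, was larger in KO than in WT for 18 of 21 sterol and 11 of 15 lipogenic genes, beside 67.8% of all genes. For the sterol list level the SD was larger in KO at ZT0 (0.53 against 0.31), ZT12 (0.53 against 0.33) and ZT20 (0.25 against 0.12). It was smaller in KO at ZT4 (0.17 against 0.39), ZT8 (0.15 against 0.26) and ZT16 (0.14 against 0.28). KO mice 44 and 18 belong to the groups of ZT0 and ZT12. Because sterol enzymes vary together, the count of genes repeats the same mice. The median SD of log2 CPM within a group was 0.45 in KO and 0.38 in WT for sterol genes, 0.41 in KO and 0.32 in WT for lipogenic genes, and 0.22 in KO and 0.19 in WT over all genes. Mvd had the largest of the sterol genes in both genotypes, 0.74 in KO and 0.66 in WT.

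Other genes of these pathways were listed apart from the 36. Of 17 other sterol genes tested, 1 was lower in KO averaged over times and none higher, 11 had a called wave in WT, 0 in KO, and 4 a called difference in waves, beside 8.86%, 48.1%, 0.984% and 22.8% of all genes for these 4 counts. The lower one was Erlin2, a membrane protein of the endoplasmic reticulum, with 39 ± 3.51 CPM in KO and 42.2 ± 3.83 CPM in WT (SD, n = 24 each; log2 fold change -0.11 ± 0.03 (SE), adjusted p = 0.016). Npc1, which exports cholesterol from lysosomes, and Soat2, which esterifies it, had WT waves with peaks at ZT 6.6 and ZT 5.5, in the subjective day, unlike most sterol enzymes. Their amplitudes were 0.19 ± 0.08 in KO and 0.55 ± 0.08 in WT for Npc1, and 0.14 ± 0.09 in KO and 0.6 ± 0.09 in WT for Soat2 (difference in waves, adjusted p = 1.42e-05 and 0.000183). Rdh11, a retinol dehydrogenase, peaked at ZT 20.8 and had 0.04 ± 0.12 in KO and 0.64 ± 0.12 in WT (adjusted p = 0.0133).

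Of 17 other lipogenic genes tested, 2 were higher and 1 lower in KO averaged over times, 12 had a called wave in WT, 0 in KO, and 11 a called difference in waves, beside the same shares of all genes (8.86%, 48.1%, 0.984% and 22.8%). Elovl2, which lengthens long polyunsaturated fatty acids, had 419 ± 52.7 CPM in KO and 508 ± 86.4 CPM in WT (SD, n = 24 each) and fell in KO (-0.28 ± 0.06 (SE), adjusted p = 0.00226). Dgat2, which completes triglycerides, had amplitudes of 0.05 ± 0.04 in KO and 0.41 ± 0.04 in WT, and Lpin1, a phosphatidate phosphatase, 0.32 ± 0.18 in KO and 1.29 ± 0.18 in WT; their WT waves peaked at ZT 11.7 and ZT 10.9, and the waves differed in both (adjusted p = 1.04e-06 and 3.2e-05). No wave was called in KO in either added list by edgeR (2 and 1 genes at an unadjusted p under 0.05). Elovl3, an elongase of long saturated and monounsaturated fatty acids named after its values were seen, had the larger fitted amplitude in KO, with 2 ± 0.58 in KO and 1.35 ± 0.49 in WT, though neither wave was called (adjusted p = 0.0984 in KO and 0.0573 in WT). It stood at 2.11 to 411 CPM in KO, against 3.66 to 306 CPM in WT, and rose at ZT12 (3.78 ± 1.16 (SE), adjusted p = 0.0271).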

How the data were processed

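Liver poly-A RNA of 48 mice was sequenced from libraries that do not record strand, amplified over 13 PCR cycles, per the labels' protocols. Bases were called with CASAVA (version not given) and reads aligned with STAR 2.4.0f1 to mm9, per the submitters' processing notes. The authors deposited whole-number read counts per gene; the counting tool, gene models and handling of reads that match several genes are not given in the sources used here. Totals were nearly equal (33562272 to 34035644); how they came to be so is not given in the sources used here. Column headers name circadian hours (CT) where the labels say ZT; columns were matched by mouse number and time.

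Tests on the deposited counts used edgeR 4.0.16 (R 4.3.3). Its filterByExpr (minimum count 10) kept 14836 genes with 99.975% of counts, scaled by TMM (factors 0.898 to 1.14). Replicates differed by 30.3 to 171 times the counting variance, and no 2 libraries were identical. Replicates are separate mice. Quasi-likelihood F tests used 1 mean per group (36 residual degrees of freedom) or 1 mean, cosine and sine of 24 h per genotype (42), fitted over all genes; a call is a Benjamini-Hochberg adjusted p under 0.05 over all genes tested. SEs come from the F statistics and are approximate for amplitudes. CPM use TMM scaling, log2 CPM a prior count of 2. The scripts were tested on simulated counts. Alternatives were DESeq2 1.42.0 and limma 3.58.1 (voom with cage as random block), edgeR with mice paired by cage (22 mice in 11 cages), other scalings, filters and covariates, and leaving out mice. Genes named are the control genes, every member called in a comparison of KO with WT, the 5 smallest p of each list for the WT and KO waves, and up to 4 genes of each added list. Some genes of the added lists are counted but not reported here by name. The members, lists and tests were chosen with earlier results of these data known.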

Additional observations from a re-analysis of the deposited data

Results flagged for a closer look

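Within groups of 4 mice, the highest or lowest value was set apart from the other 3 (a gap to the nearest value above Dixon's 95% limit, as a share of the group's range) in 29 of 456 tests (36 genes and 2 list levels in each of 12 groups), or 6.36%, where chance gives about 1 in 20. WT mouse 2 of ZT4 stood apart with 183 CPM of Lss (above 72.1 to 85.3 in the others), 257 CPM of Nsdhl (above 158 to 161 in the others), 278 CPM of Dhcr7 (above 125 to 133 in the others), 455 CPM of Acly (above 241 to 260 in the others), 106 CPM of Acacb (above 61.3 to 65.4 in the others), 532 CPM of Thrsp (above 128 to 181 in the others) and a lipogenic list level of 0.2 (above -0.43 to -0.34). KO mouse 18 of ZT12 stood apart with 300 CPM of Idi1 (above 74.8 to 97.8 in the others), 359 CPM of Sqle (above 140 to 158 in the others), 267 CPM of Lss (above 78.3 to 98.8 in the others), 665 CPM of Cyp51 (above 242 to 303 in the others), 303 CPM of Dhcr7 (above 87.8 to 124 in the others) and 475 CPM of Acss2 (above 162 to 208 in the others). WT mouse 48 of ZT0 stood apart with 20 CPM of Mvk (below 32.8 to 34.8 in the others) and 95.8 CPM of Idi1 (below 143 to 151 in the others). WT mouse 29 of ZT16 stood apart with 377 CPM of Idi1 (above 152 to 179 in the others) and 487 CPM of Sqle (above 281 to 304 in the others). WT mouse 13 of ZT8 stood apart with 49.1 CPM of Idi1 (below 101 to 107 in the others) and a sterol list level of -0.93 (below -0.42 to -0.38). WT mouse 23 of ZT12 stood apart with 143 CPM of Cyp51 (below 299 to 331 in the others). KO mouse 31 of ZT16 stood apart with 143 CPM of Tm7sf2 (above 112 to 116 in the others). KO mouse 15 of ZT8 stood apart with 555 CPM of Sc5d (below 619 to 624 in the others). KO mouse 30 of ZT16 stood apart with 200 CPM of Dhcr7 (above 145 to 150 in the others). KO mouse 44 of ZT0 stood apart with 146 CPM of Scap (above 111 to 116 in the others). KO mouse 14 of ZT8 stood apart with 386 CPM of Acss2 (above 323 to 330 in the others). WT mouse 42 of ZT0 stood apart with 641 CPM of Elovl5 (above 511 to 528 in the others). WT mouse 16 of ZT8 stood apart with 334 CPM of Fads2 (above 236 to 248 in the others). KO mouse 43 of ZT0 stood apart with 164 CPM of Gpam (below 294 to 300 in the others). KO mouse 9 of ZT8 stood apart with a lipogenic list level of -0.1 (below 0.1 to 0.13).

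The difference between genotypes varied with the time of day for 15 genes, by the edgeR test of the genotype by time interaction (20.7% of all genes were called), with an adjusted p of 0.000533 for Pmvk, 0.0119 for Fdps, 0.0389 for Lss, 0.0155 for Ebp, 0.0336 for Dhcr7, 0.00464 for Scap, 1.73e-05 for Insig2, 0.00369 for Acss2, 0.0124 for Acly, 0.000763 for Acacb, 0.00178 for Elovl5, 0.00913 for Elovl6, 0.000207 for Fads2, 0.0338 for Srebf1 and 8.95e-05 for Thrsp. The 24 h waves differed between KO and WT for 13 genes, 11 of them among those 15 (22.8% of all genes were called), with an adjusted p of 0.00215 for Pmvk, 0.00152 for Scap, 5.55e-06 for Insig2, 0.00476 for Acss2, 0.00811 for Acly, 0.038 for Acaca, 0.00014 for Acacb, 0.000629 for Elovl5, 0.00103 for Elovl6, 2.33e-05 for Fads2, 0.0344 for Gpam, 0.0223 for Srebf1 and 1.04e-05 for Thrsp. KO amplitudes were the smaller in all 13 of these, beside 71.9% of all genes tested. The 13 were picked by a test on the same values, so this count adds no separate support. The share among all genes called in that test is not given here.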

How the results depend on the processing

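No called result changed direction under any alternative run. Apart from the fit paired by cage, the share of all genes called under the alternatives is not given here. A change in count thus cannot be read as particular to the members. For sterol genes, calls higher in KO summed over the 6 times (10) came to 5 with no filter on low counts and 4 with body weight as covariate, and those at ZT8 (9) to 4 and 3. Calls lower in KO (1) came to 2 with total counts in place of TMM, 3 with body weight, 3 with DESeq2 and 5 without the 4 farthest KO mice. The interaction (7) came to 12 with DESeq2 and 14 without those 4 mice, the time effect in KO (0) to 1 with DESeq2, and the WT wave (14) to 5 with cage set as a term, an alternative added after the data were seen. The difference in waves (3) came to 7 with body weight, 6 with limma-voom and the cage block, 9 without those 4 mice and 1 for enzymes alone. The median KO amplitude (0.09) was 0.24 without those mice and 0.16 with cage set. For lipogenic genes, those higher in KO averaged over times (1) came to 0 with body weight, 0 for enzymes alone and 2 without the 4 mice, and those lower (3) to 0 without them; summed calls higher (8) came to 4 for enzymes alone, and the median KO amplitude (0.14) to 0.23 with cage set. Fewer genes or mice enter where enzymes alone or fewer mice are used; otherwise the cause was not tested.

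Leaving out each mouse in turn, the sterol counts ran from 3 to 12 (higher, summed), 0 to 2 (lower, summed), 2 to 11 (ZT8), 5 to 13 (interaction), 11 to 18 (time effect in WT), 0 to 1 (time effect in KO) and 3 to 8 (difference in waves), and the lipogenic ones from 3 to 10 (higher, summed), 3 to 9 (lower, summed) and 1 to 6 (ZT8). The lower sterol count was 2 without KO mouse 43 of ZT0, 14 of ZT8 or 18 of ZT12, and 0 without KO mouse 25 of ZT16. The lower lipogenic count (5) was 9 without KO mouse 18 of ZT12 and 3 without KO mouse 34, 38 or 39 or WT mouse 33 or 36, all of ZT20. The higher lipogenic count (8) was 3 without WT mouse 13 and 4 without WT mouse 16, both of ZT8, and 5 without KO mouse 6 or 7 or WT mouse 3, 4 or 8 of ZT4, or KO mouse 14 or WT mouse 11 of ZT8. Mouse numbers occur once each and pair no mice, but 11 cages held 1 KO and 1 WT mouse killed at the same time. A fit paired by cage on these 22 mice, with cage as a block and added after the data were seen, gave 0 sterol and 0 lipogenic calls averaged over times (1 and 4 genes at an unadjusted p under 0.05), beside 0.613% of all genes. Summed over times it gave 4 sterol calls higher in KO (Mvd and Fdps at ZT8, Mvd and Insig2 at ZT12) and 0 lower, of which 2 at ZT8, and 0 lipogenic calls higher and 2 lower (Fads2 and Srebf1 at ZT12). The same fit called 0.634% of all genes at ZT8 and 5.84% at ZT12. It called 0 genes of either list for the interaction (13 and 11 at an unadjusted p under 0.05), beside 0.263% of all genes. It has 5 residual degrees of freedom and 1 to 3 pairs at a time, so a lost call is not a smaller effect: the sterol median at ZT8 was 1.18 over 2 pairs. As a random block, cage had a correlation of 0.0806 (groups) or 0.158 (waves). The limits are 4 mice per group, 1 cycle of 24 h sampled at 6 times, cage sets tied to pairs of times, Cre tied to KO, and nearly equal totals of unstated origin; counting error was small beside the spread between mice.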

Other observations

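Genes of the oxysterol receptor LXR, which senses excess cholesterol and also activates Srebf1, were set beside the 36 genes. Of 11 receptors and targets tested, 3 were higher and 1 lower in KO averaged over times, 7 had a called wave in WT, 0 in KO (2 at an unadjusted p under 0.05), and 4 a called difference in waves, beside 8.86%, 48.1%, 0.984% and 22.8% of all genes. Abcg5 and Abcg8, which together export sterols into bile, peaked in WT at ZT 7.7 and ZT 6.5, with amplitudes of 0.08 ± 0.08 in KO and 0.77 ± 0.08 in WT for Abcg5, and 0.27 ± 0.11 in KO and 0.84 ± 0.11 in WT for Abcg8 (adjusted p of the difference in waves 1.14e-06 and 2.49e-06). Nr1h2, the gene of LXR beta, had 0.02 ± 0.04 in KO and 0.27 ± 0.04 in WT (adjusted p = 0.00078). Lpcat3, which puts polyunsaturated chains into phospholipids, had 91.4 ± 12 CPM in KO and 109 ± 18.9 CPM in WT (SD, n = 24 each) and was lower in KO at all 6 times; it fell by 0.24 on the log2 scale (SE 0.05, adjusted p = 0.00116).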
